A study of Mus musculus with 27 samples.

Results

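The effect of the TGFβ receptor inhibitor SB431542 (SB) on adult mouse cardiac fibroblasts (CFs) that carried 5 cardiac transcription factors was measured by setting 3 CF cultures with 5 µM SB against 3 with the DMSO vehicle, which are 6 of the 27 arrays of the study. Each gene was read from a single probe set of Affymetrix Mouse Gene ST arrays, the probe set with the highest mean over all arrays among those that carry only that gene's symbol, and all 19938 genes with such a probe set were compared. The study asked whether blocking TGFβ signalling helps fibroblasts turn into cardiomyocyte-like cells. The CFs came from hearts of mice 8 to 12 weeks old and were used at passage 3. All CF groups carried a transactivator and a reporter with a troponin T promoter together with doxycycline-inducible lentiviruses for Hand2, Nkx2.5, Gata4, Mef2C and Tbx5 (HNGMT, called 5F in the labels), received SB, DMSO or 2 ng per mL TGFβ1 at Day -1 and 2 µg per mL doxycycline from Day 0, and were collected at Day 3. No CF culture without the factors was analysed here, so the effect of SB cannot be separated from the presence of HNGMT. The labels call the 3 cultures of a group independent biological replicates and do not name the animals, so the p-values measure the spread between cultures. For the CF cultures, GEO's growth and treatment descriptions speak of mouse embryonic fibroblasts (MEFs) instead.

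TGFβ ligands are held in the matrix in a latent form and, once released, bring a type II receptor together with the type I receptor Alk5, which phosphorylates Smad2 and Smad3 so that they enter the nucleus with Smad4. SB blocks the kinase of Alk5 and of the related activin receptors Alk4 and Alk7. In the heart, TGFβ signalling is known for turning fibroblasts into contractile, matrix-secreting myofibroblasts, and in endothelial cells for driving them towards a mesenchymal state.

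The CF arrays held transcripts of fibroblasts and of endothelial cells alike. Of 22 fibroblast markers, 9 lay in the brightest 25% of each DMSO array, among them Vim (13.76 to 13.79), Dcn (12.85 to 12.95) and Col1a1 (12.19 to 12.28; all values are log2 intensities). The cardiac fibroblast marker Tcf21 had 6.51 to 6.86 and Fap 5.78 to 5.96, below the array medians of 8.03 to 8.05. Of 24 endothelial markers, 14 lay in the brightest 25%, among them Emcn (12.98 to 13.10), Cdh5, the cadherin of endothelial junctions (12.59 to 12.62), and Pecam1 (11.64 to 11.86), while Sox17 (6.24 to 6.27) and Cldn5 (7.26 to 7.60) were low. None of 19 leukocyte and none of 16 skeletal muscle markers did so. The cultures are called CFs here as in the labels. In bulk RNA, fewer cells of a type and less RNA per cell cannot be told apart.

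SB replicate 3 stood apart from all other CF cultures. Its mean over the 24 endothelial markers was 9.08, against 10.44 and 10.47 in SB replicates 1 and 2 and 10.23 to 10.24 with DMSO, and its mean over the 22 fibroblast markers was 10.27, against 9.55 to 9.70 in the 5 other arrays. Compared with the mean of SB replicates 1 and 2, 17 of the 24 endothelial markers were at least 2-fold lower there and none was 2-fold higher, while 6 of the 22 fibroblast markers were at least 2-fold higher and none lower. Over all genes, 251 (1.26%) were more than 2-fold above and 400 (2.01%) more than 2-fold below. Entpd1, an ectonucleotidase of vascular endothelium, lay at 12.46 and 12.57 in SB replicates 1 and 2 and at 8.18 in replicate 3, and Calcrl, the receptor for adrenomedullin, at 11.56, 11.53 and 7.94. In the other direction, the acute phase gene Saa3 lay at 5.90, 5.74 and 10.62, Lcn2, the iron-siderophore binding lipocalin, at 7.87, 8.33 and 12.86, and the matrix protease Mmp3 at 5.85, 5.73 and 10.09. The median over all genes of this array, 8.03, lay within the range of the other CF arrays. Whether this makeup changes the response to SB was not tested, and values with and without this culture are given for the genes that changed.

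With SB, the genes that fell were led by the elastin gene Eln, Adamtsl2, Nrep and the Wnt antagonist Sfrp2. Without SB replicate 3, Lox, Fbln5, Igf1 and the chemokine Ccl17 were also among them. Of these, Eln, Adamtsl2, Nrep, Lox and Fbln5 are on the lists of matrix or TGFβ target genes below. The genes that rose were led, without SB replicate 3, by the cytochrome P450 gene Cyp1a1, the hyaluronan receptor Lyve1, the endothelial receptor Gpr182 and the fatty acid binding protein Fabp4. With all arrays, 9 genes were higher (0.0451%) and 39 lower (0.196%) at a Benjamini-Hochberg adjusted p under 0.05 in limma and a change of at least 0.32 on the log2 scale. Without SB replicate 3, 171 were higher (0.858%) and 206 lower (1.03%), from 3 DMSO cultures against 2 SB cultures. Genes past these thresholds are those said to rise or fall.

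The all-array counts rest on single libraries. Without DMSO replicate 3 they were 0 higher and 2 lower, without DMSO replicate 2 they were 1 and 8, and without DMSO replicate 1 they were 7 and 13. The 39 lower genes became 18 without SB replicate 1 and 18 without TGFβ1 replicate 3, an array that enters the estimate of spread only, and the 9 higher genes became 5 without it. At an unadjusted p under 0.05 in limma with all arrays, 477 genes were higher (2.39%) and 763 lower (3.83%). The counts without SB replicate 3 became 90 and 103 when SB replicate 1 was also left out, 62 and 134 without SB replicate 2, and 99 and 133 without DMSO replicate 3. With all arrays and without SB replicate 3, 8 genes rose and 37 fell both times. Of the genes called with all arrays, the transcription factor gene Ets1, higher, and the kinase Limk2 and Specc1, lower, missed that size of change without that culture, with -0.31 for Limk2 (-0.32 with all arrays), 0.29 for Ets1 (0.33) and a value just short of it for Specc1 (-0.34).

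SB replicate 3 took the same side of DMSO as the other SB cultures for some of these genes and the opposite side for others. Of the 206 genes that fell without it, replicate 3 lay below all DMSO arrays for 140 and above all of them for 49. Of the 171 that rose without it, replicate 3 lay above all DMSO arrays for 49 and below all of them for 109. Some genes hold the same value, to all deposited decimals, in more than 1 culture of a CF group: 8.85% of genes among the DMSO and 9.75% among the SB cultures, against 0.0602% to 0.125% in the MEF groups. Within the DMSO group, 11 of the 48 genes called with all arrays (22.9%) held such values. So did 51 of the 377 called without SB replicate 3 (13.5%), against 8.85% of all genes. How these equal values arose was not tested. Without the 3449 genes concerned, 6 rose and 30 fell with all arrays and 156 and 170 without SB replicate 3.

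**Figure D1:**
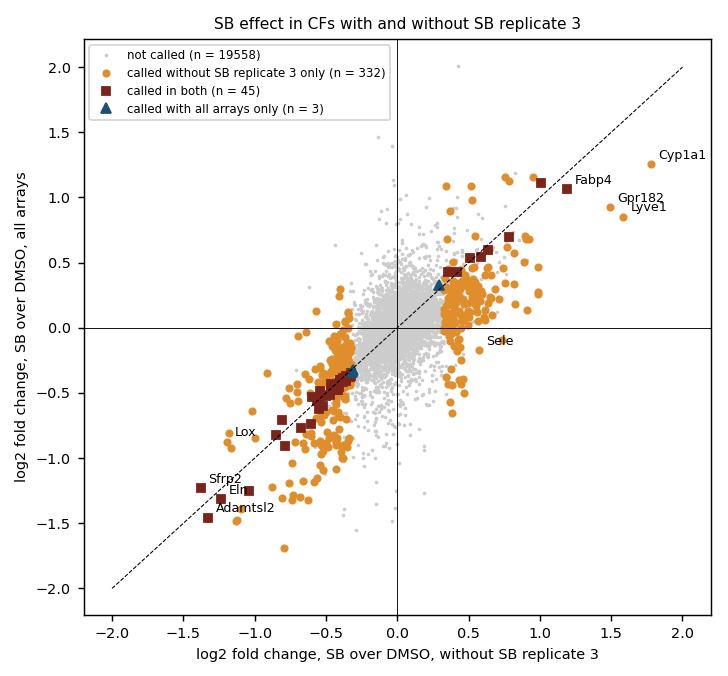
SB effect (log2 SB minus DMSO) of each of 19938 genes with all arrays (vertical axis) against the effect without SB replicate 3 (horizontal axis). Points are genes coloured by where they passed the test (45 both ways, 332 only without replicate 3, 3 only with all arrays, 19558 neither way), and the dashed line marks equal values: genes that passed both ways lie close to it, while many that passed only without replicate 3 lie far off it.

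The TGFβ ligand and receptor genes themselves moved little with SB, while 5 of 16 Smad and pathway inhibitor genes fell without SB replicate 3 and none rose. TGFβ itself commonly induces some of these inhibitors. Tgfb1 lay at 10.64, 10.82 and 10.69 with DMSO and at 10.79, 10.87 and 10.50 with SB, which overlap. Tgfbr1, which encodes Alk5, the receptor that SB blocks, lay at 10.22, 9.88 and 10.13 with DMSO and at 9.90, 9.85 and 10.11 with SB, also overlapping. Of 16 ligand and latency genes, 1 rose and 1 fell without SB replicate 3 and none was called with all arrays. Lrrc32, which tethers latent TGFβ to the cell surface, rose by 0.47 (log2, standard error 0.04, limma adjusted p = 0.000634), and Ltbp4, which anchors latent TGFβ to elastic fibers, fell by 0.47 (standard error 0.06, adjusted p = 0.00641). Replicate 3 had 11.51 for Lrrc32, above the 11.24 to 11.26 of DMSO, and 8.93 for Ltbp4, above the 8.64 to 8.82 of DMSO, the opposite side from replicates 1 and 2 (8.30 and 8.21). With all arrays Lrrc32 had 0.40 (adjusted p = 0.0508) and Ltbp4 -0.25 (adjusted p = 0.944). Of 9 receptor genes, the coreceptor Tgfbr3 rose, from 9.67, 9.70 and 9.67 with DMSO to 10.22 and 10.14, and replicate 3 had 9.54 (0.50 without it and 0.29, adjusted p = 0.931, with it). With TGFβ1 it lay between 8.01 and 8.09.

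Skil, which encodes the Smad repressor SnoN, fell in all 3 SB cultures. It lay at 9.79, 9.61 and 9.75 with DMSO and at 9.17, 9.14 and 9.15 with SB, without overlap, a log2 fold change of -0.56 (standard error 0.06, limma adjusted p = 0.0133) with all arrays and the same without replicate 3 (adjusted p = 0.00417). Pmepa1, a membrane protein that sequesters receptor Smads, lay at 10.84, 10.89 and 10.90 with DMSO and at 10.15, 10.10 and 10.66 with SB, so that replicate 3 was the closest to DMSO though below it. It did not pass with all arrays (log2 fold change -0.58, adjusted p = 0.232) and fell without replicate 3 (-0.75, standard error 0.05, adjusted p = 0.000336). Ldlrad4, another inhibitor of Smad activation, had -0.47 without replicate 3, Fst, the activin-binding follistatin, -0.57, and the related Fstl3 -0.38, and these passed only without it. With all arrays they had -0.37, -0.69 and -0.02. Fstl3 lay at 11.65 in replicate 3, above the 10.84 to 11.05 of DMSO. The feedback inhibitor Smad7 had -0.32 with all arrays (adjusted p = 0.262) and -0.25 without replicate 3 (adjusted p = 0.122). With TGFβ1, 6 of the 16 rose and 1 fell, against a background of 3.11% of all genes rising and 2.2% falling. The SB and TGFβ1 comparisons share the DMSO cultures, so their values are given side by side only.

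Of 31 TGFβ target genes, 12 fell with SB without replicate 3, 4 of them also with all arrays, and none rose. Adamtsl2, Itgb5, Lox, Nrep, Nupr1 and Pdlim3, 6 of the 12, are also among the genes that the study listed as lowered by SB on these samples, so the count is not independent evidence of its direction. The median log2 fold change of the 31 was -0.14 without replicate 3 and -0.16 with all arrays, where the medians over all genes were -0.0149 and -0.00198. Adamtsl2, which encodes a matrix protein that binds fibrillin and latent TGFβ binding protein, lay at 9.69, 9.69 and 9.72 with DMSO and at 8.47, 8.29 and 7.98 with SB, a log2 fold change of -1.46 (standard error 0.11, limma adjusted p = 0.0045) with all arrays and -1.33 without replicate 3. All 3 SB cultures were below DMSO and replicate 3 was the lowest, and the 3 cultures with TGFβ1 lay above DMSO at 11.52, 11.56 and 11.57. Nrep, a small neuronal and wound-repair protein, lay at 10.23, 10.08 and 10.15 with DMSO and at 9.13, 9.10 and 8.47 with SB (-1.25, standard error 0.16, adjusted p = 0.0233, and -1.04 without replicate 3). Nuak1, an AMPK-related kinase, had -0.43 (adjusted p = 0.0194, and -0.46 without replicate 3) and Skil, above, was the other of the 4.

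The other 8 targets fell only without SB replicate 3, and for most of them that culture still lay below DMSO. Lox, a lysyl oxidase that joins collagen and elastin fibres, lay at 12.14, 11.98 and 11.99 with DMSO and at 10.84, 10.85 and 11.80 with SB. Replicate 3 was thus below all DMSO cultures but much nearer to them, and the log2 fold change was -0.87 (adjusted p = 0.308) with all arrays and -1.19 (standard error 0.06, adjusted p = 0.000123) without it. Pdlim3, an actin-associated protein, lay at 10.87, 10.84 and 10.87 with DMSO and at 9.76, 9.69 and 8.69 with SB, where replicate 3 was the lowest by far (-1.13 without it and -1.48, adjusted p = 0.082, with it). Igfbp3, which binds insulin-like growth factors, had -0.72 without replicate 3 and -0.88 with all arrays (adjusted p = 0.0508). Itgb5, an integrin subunit of vitronectin receptors, lay at 11.79, 11.78 and 11.81 with DMSO, at 11.09 and 11.10 in SB replicates 1 and 2 and at 11.92 in replicate 3, above DMSO (-0.70 without it and -0.43, adjusted p = 0.862, with it). Nupr1, a stress-response nuclear protein, did the same, with 12.11 to 12.18, then 11.35 and 11.43, and 12.28 in replicate 3 (-0.76 without it and -0.46, adjusted p = 0.874, with it). Replicate 3 was above all DMSO arrays for these 2 of the 12 and below them for the other 10. Ccn2, connective tissue growth factor, did not pass (-0.16 without replicate 3, adjusted p = 0.0584), with 13.41 in all 3 DMSO cultures. The highest values of the CF arrays were 14.24 to 14.34, where a change can go unseen. With TGFβ1, 17 of the 31 rose and 1 fell.

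**Figure D2:**
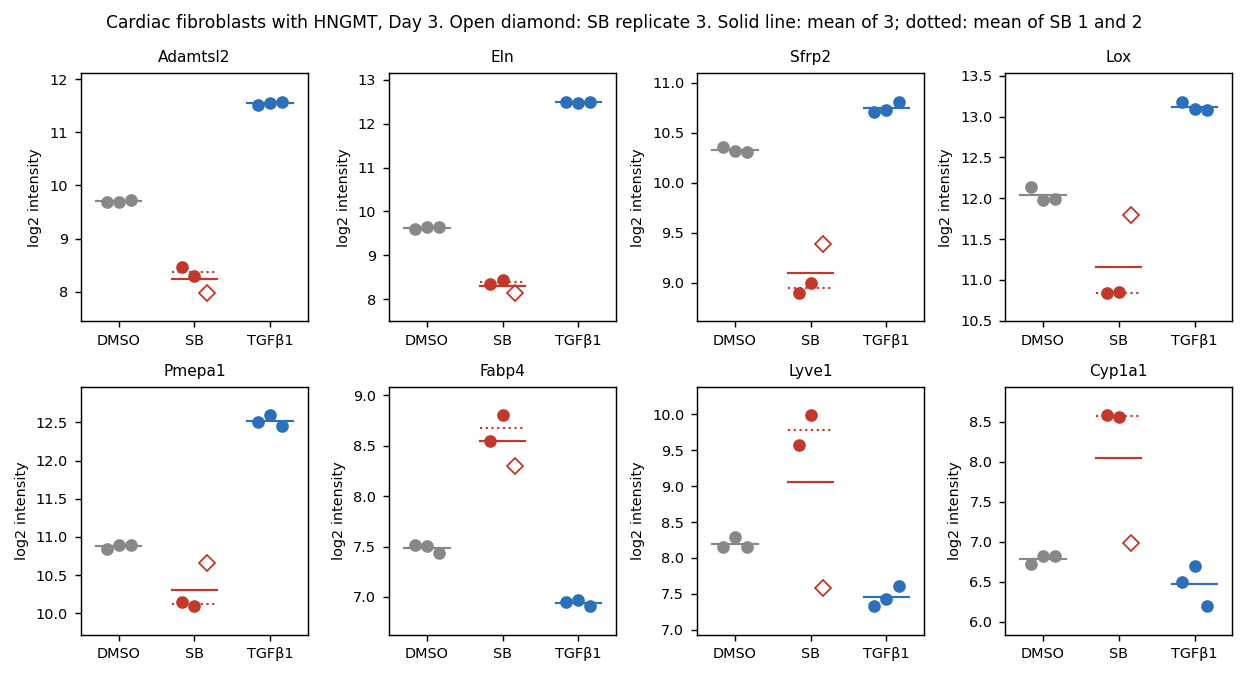
Log2 intensity of 8 genes in the 9 CF cultures (DMSO, SB, TGFβ1). Each symbol is a culture, the open diamond is SB replicate 3, the solid line the mean of 3 cultures and the dotted line the mean of SB replicates 1 and 2: Adamtsl2 and Eln are low in all 3 SB cultures, while for Lox, Lyve1 and Cyp1a1 replicate 3 (11.80, 7.59 and 6.99) lies far from the other SB cultures.

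Promoters of called target genes are shown to let a reader see which of them hold the short Smad-binding letters. The 4 genes are those with the smallest p among the called targets that had an entry among the RefSeq promoters of GRCm38.p6 (250 bases before to 50 after the start of the gene). Capitals mark CAGAC or its reverse complement GTCTG.
Adamtsl2, chr2:27079129-27079428, plus strand: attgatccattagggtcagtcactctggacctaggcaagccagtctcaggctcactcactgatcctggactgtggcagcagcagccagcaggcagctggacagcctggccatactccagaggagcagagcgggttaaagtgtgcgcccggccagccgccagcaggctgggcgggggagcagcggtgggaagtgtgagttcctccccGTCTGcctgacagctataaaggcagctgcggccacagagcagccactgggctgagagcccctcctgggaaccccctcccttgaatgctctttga
Itgb5, chr16:33829415-33829714, plus strand: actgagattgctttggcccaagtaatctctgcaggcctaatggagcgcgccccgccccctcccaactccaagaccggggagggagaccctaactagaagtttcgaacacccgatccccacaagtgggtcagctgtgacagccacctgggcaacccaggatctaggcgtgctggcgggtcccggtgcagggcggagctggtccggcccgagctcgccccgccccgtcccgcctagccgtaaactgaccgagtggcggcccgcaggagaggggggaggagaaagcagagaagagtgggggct
Pdlim3, chr8:45885237-45885536, plus strand: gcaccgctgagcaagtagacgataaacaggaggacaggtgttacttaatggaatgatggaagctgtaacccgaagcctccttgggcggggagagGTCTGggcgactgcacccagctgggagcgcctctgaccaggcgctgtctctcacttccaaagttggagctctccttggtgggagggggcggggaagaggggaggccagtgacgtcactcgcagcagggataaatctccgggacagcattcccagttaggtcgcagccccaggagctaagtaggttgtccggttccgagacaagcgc
Nupr1, chr7:126625421-126625720, minus strand: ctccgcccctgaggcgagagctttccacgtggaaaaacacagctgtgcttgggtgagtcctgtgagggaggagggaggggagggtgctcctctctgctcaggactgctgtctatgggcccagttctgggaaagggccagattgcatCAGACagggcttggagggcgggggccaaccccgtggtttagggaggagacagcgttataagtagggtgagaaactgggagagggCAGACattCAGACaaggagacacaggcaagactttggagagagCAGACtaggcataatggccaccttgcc
CAGAC, searched on both strands, matched 1 time in the Adamtsl2 window, 1 time in Pdlim3, 4 times in Nupr1 and 0 times in Itgb5. It was present in 49.6% of all 32851 promoters, with a mean of 0.71 matches, so its presence in a window is common. The longer palindrome GTCTAGAC, present in 0.213% of promoters and overlapping no match above, and GGCGCC, present in 11.9%, matched none of the 4 windows. A match of letters is a description of the window and does not show binding.

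Genes for making, crosslinking and assembling matrix fell and none of them rose. Of 23 collagen chains 7 fell without SB replicate 3, of 17 genes for collagen processing and crosslinking 7 fell, and of 32 genes for elastic fibers, proteoglycans and matricellular proteins 7 fell. With all arrays these counts were 3, 1 and 2. Col5a2 among the chains and Lox among the processing genes are on the study's list of genes lowered by SB on these samples. The medians without replicate 3 were -0.17, -0.23 and -0.15, and none of the 17 processing genes had a log2 fold change above 0. Eln lay at 9.61, 9.63 and 9.63 with DMSO and at 8.34, 8.44 and 8.14 with SB (-1.32, standard error 0.07, limma adjusted p = 0.00108, and -1.23 without replicate 3), and with TGFβ1 at 12.48 to 12.50. It had the smallest p of all genes with all arrays, with an equal value of 9.634 in some DMSO cultures. No SB value came near a DMSO value. Fbln5, the fibulin needed to build elastic fibers, lay at 12.51 in each DMSO culture and at 11.41, 11.36 and 10.33 with SB, which is lower in all 3 cultures. With all arrays it had -1.48 (standard error 0.25, adjusted p = 0.0784) and did not pass, with the SB cultures spread over 1 log2 unit, and without replicate 3 it had -1.12 (standard error 0.04, adjusted p = 5.19e-05).

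Among the collagen chains, 3 fell with all arrays. All 3 had an equal value in some DMSO cultures: 9.3554 for Col11a1, 8.683 for Col4a3 and 8.0272 for Col4a4. Col11a1, a fibril-forming chain of cartilage and fibrotic tissue, lay at 9.36, 9.21 and 9.36 with DMSO and at 8.77, 8.77 and 8.67 with SB (-0.57, standard error 0.05, limma adjusted p = 0.0116, and -0.54 without replicate 3). The basement membrane chains Col4a3 (-0.41) and Col4a4 (-0.40) had standard errors of 0.04 each and -0.40 both without replicate 3, and their genes are neighbours that share a promoter region. Without replicate 3, Col5a2 (-0.64), Col3a1 (-0.61), Col12a1 (-0.38) and Col1a1 (-0.33) also fell. With all arrays these had -0.81, -0.50, -0.18 and -0.14 and did not pass. For Col1a1, the main chain of type I collagen, SB replicates 1 and 2 had 11.97 and 11.84 and replicate 3 12.46, above the DMSO cultures at 12.24, 12.19 and 12.28. Col1a2, its partner chain, had -0.39 without replicate 3 and did not pass (adjusted p = 0.205).

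Of the processing genes, Plod2, a lysyl hydroxylase that prepares collagen crosslinks, fell with all arrays, from 12.21, 12.02 and 12.08 with DMSO to 11.65, 11.62 and 11.62 (-0.47 with and without replicate 3, limma adjusted p = 0.0183 with it). The prolyl hydroxylases P4ha3 (-0.73), P3h2 (-0.41) and P4ha2 (-0.36), the lysyl oxidases Lox and Loxl4 (-0.44) and the transglutaminase Tgm2 (-0.33) fell without replicate 3. With all arrays P4ha3 had -1.28, P3h2 -0.90, P4ha2 -0.23, Loxl4 -0.07 and Tgm2 -0.19. Replicate 3 had 10.80 for Loxl4, above the 10.11 to 10.12 of DMSO, and 8.36 for P4ha3, far below the 10.73 to 10.80 of DMSO. Thus replicate 3 lay above DMSO for 3 of these 7 genes and below it for 4. The matricellular genes Ccn5 (-0.91), Ccn4 (-0.65), Cthrc1 (-0.48) and Thbs2 (-0.37) fell without replicate 3, and Thbs4 with all arrays (-0.35) and without replicate 3 (-0.32). The first 4 had -0.35, -0.36, -0.84 and -0.19 with all arrays and did not pass. Htra1, a secreted serine protease that is on none of these lists, fell in all 3 SB cultures, from 12.04, 11.89 and 12.02 to 11.11, 11.16 and 11.22 (-0.82, standard error 0.05, adjusted p = 0.00203, and -0.85 without replicate 3).

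Integrin genes followed the matrix genes in part: 4 of 19 fell without replicate 3 and none rose. Itga11 and Itgb5 are also counted among the TGFβ targets above. Itgb5 is on the study's list of genes lowered by SB on these samples as well. Itga4, the α4 subunit that binds fibronectin and Vcam1, fell with all arrays, from 9.80, 9.67 and 9.64 to 8.97, 8.81 and 9.20 (-0.71, limma adjusted p = 0.0263, and -0.81 without replicate 3). Itgbl1, an integrin-like protein, had -1.02 and Itga11, a collagen receptor, -0.45 without replicate 3, against -0.64 (adjusted p = 0.843) and -0.71 (adjusted p = 0.338) with all arrays. Replicate 3 had 8.89 for Itgbl1, above the 8.68 to 8.85 of DMSO. Of 21 matrix proteases and their inhibitors, Plau, the urokinase plasminogen activator, rose and Adamts5 fell without replicate 3 (-0.41, and -0.68 with all arrays, adjusted p = 0.395). Plau lay at 10.32, 10.08 and 10.20 with DMSO and at 11.16 and 11.21 in SB replicates 1 and 2, and replicate 3 lay below DMSO, so its 0.99 (standard error 0.12, adjusted p = 0.00414) without replicate 3 became 0.26 (adjusted p = 0.985) with it.

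Contractile genes of smooth muscle and heart fell where they passed. Of 24 myofibroblast and smooth muscle genes 2 fell without replicate 3 and none with all arrays: the smooth muscle myosin Myh11 (-0.68) and calponin Cnn1 (-0.56). Both were lower still in replicate 3, at 7.44 for Myh11 against 9.23 and 9.37 in replicates 1 and 2, and at 8.42 for Cnn1 against 10.11 and 10.30, so that with all arrays they had -1.30 (adjusted p = 0.57) and -1.15 (adjusted p = 0.653). Acta2, the actin that defines myofibroblasts, had -0.07 both ways (limma adjusted p = 0.668 without replicate 3), at 13.35 to 13.39 with SB and 13.41 to 13.47 with DMSO. These values also lie near the upper end of the arrays. Of 28 cardiac sarcomere genes, 4 fell without replicate 3 and 2 with all arrays. Tnnc1, slow and cardiac troponin C, lay at 11.69, 11.76 and 11.76 with DMSO and at 11.11, 11.16 and 10.72 with SB (-0.74, standard error 0.11, adjusted p = 0.0456, and -0.60 without replicate 3), with TGFβ1 at 12.36 to 12.49. Xirp1, an actin-binding protein of cell junctions in heart, lay at 9.52, 9.54 and 9.47 with DMSO and at 9.04, 9.06 and 9.04 with SB (-0.46 with and without replicate 3, standard error 0.04, adjusted p = 0.00773 with it). The slow troponin I gene Tnni1 (-0.34) and Mybpc3 (-0.43), cardiac myosin binding protein C, fell without replicate 3 and had -0.87 and -0.85 with all arrays, where they did not pass.

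None of the sarcomere genes rose. Tnnt2, cardiac troponin T, whose promoter drives the reporter, had -0.02 without replicate 3 (limma adjusted p = 0.954) at 13.71 to 13.72 in those SB cultures. Of 26 cardiac regulators and peptides, Hey2, a Notch target of ventricle and artery, fell with all arrays (-0.52, adjusted p = 0.0228) and without replicate 3 (-0.50), and Nppb, B-type natriuretic peptide (-0.44), and the muscle methyltransferase Smyd1 (-0.54) fell without replicate 3 (-0.17 and -0.87 with all arrays). Tgfbr3, above, which is also on this list, rose without replicate 3. Smyd1 had 8.51 in each DMSO culture and 7.99, 7.94 and 6.99 with SB. Of 23 genes of calcium handling and conduction, the calcium buffer Casq2 (-0.40) and the T-type calcium channel Cacna1g (-0.42) fell without replicate 3 (-0.68 and -0.64 with all arrays), and Pln, phospholamban, the inhibitor of the calcium pump of the sarcoplasmic reticulum, rose. Pln lay at 6.71, 6.71 and 6.84 with DMSO and at 7.07, 7.12 and 6.57 with SB, so that replicate 3 was below DMSO (0.34, standard error 0.06, adjusted p = 0.0314 without replicate 3, and 0.17, adjusted p = 0.951, with it). Pln and Tgfbr3 are among the genes that the study listed as raised by SB on these samples. Of the 5 delivered factors none was called. Hand2 had 0.16 with all arrays, Nkx2-5 0.08, Gata4 0.06, Mef2c -0.07 and Tbx5 -0.35 (adjusted p = 0.947), where Tbx5 was at 8.34 in replicate 3 against 9.43 and 9.47. Whether the probe sets read the delivered transcripts was not tested.

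**Figure D3:**
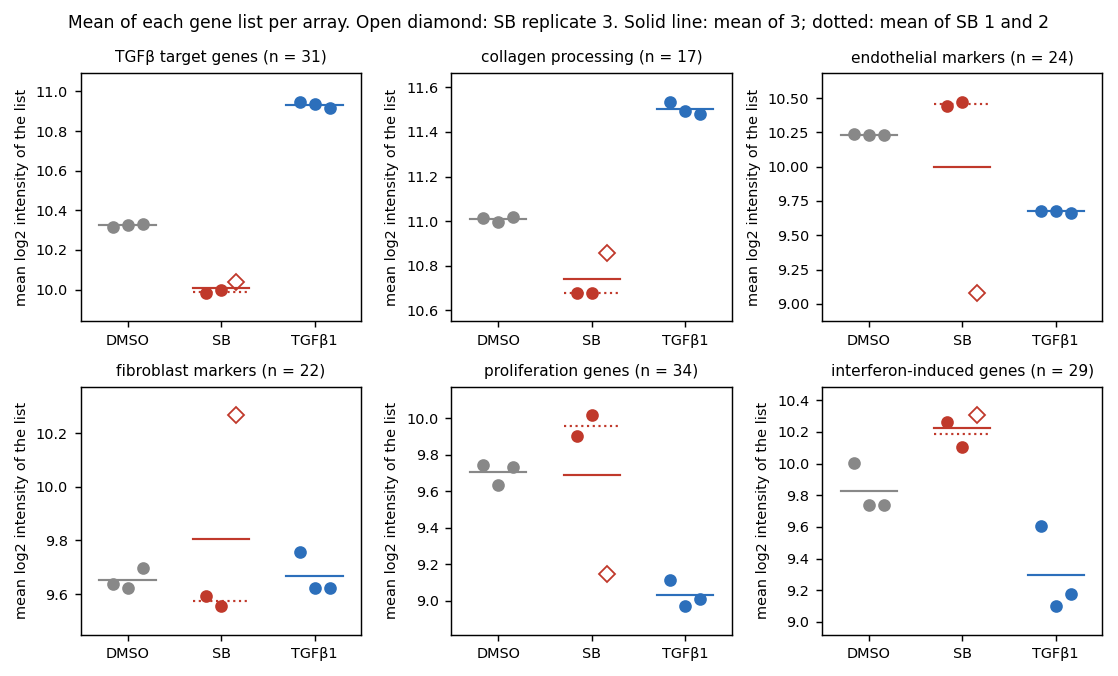
Mean log2 intensity over the measured members of 6 gene lists in each CF culture, by treatment. Each symbol is a culture, and the open diamond is SB replicate 3: its mean is near those of the other SB cultures for TGFβ targets (10.04 against 9.98 and 10.00). Single targets lay far from the other SB cultures in both directions there, such as Lox above and Pdlim3 below them. For endothelial genes its mean lies far below all others (9.08).

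A group of endothelial genes rose when SB replicate 3, which held low levels of endothelial markers, was left out. Of 24 endothelial markers, 9 rose and 1 fell without replicate 3, with a median of 0.24, and with all arrays none was called and the median was -0.28. Robo4, a guidance receptor of vessels, lay at 8.13, 8.20 and 8.22 with DMSO and at 9.03, 9.19 and 8.38 with SB, so that all 3 SB cultures were above DMSO (0.93, standard error 0.06, limma adjusted p = 0.000227 without replicate 3, and 0.68, adjusted p = 0.307, with it). Kdr, the main receptor for VEGF, lay at 9.31, 9.12 and 9.22 with DMSO, at 9.74 and 9.76 in SB replicates 1 and 2 and at 8.72 in replicate 3, where the direction is opposite (0.54 without it and 0.19, adjusted p = 0.979, with it). Flt1, the other VEGF receptor, fell, from 10.75, 10.67 and 10.63 to 10.21, 10.29 and 8.29 (-0.43 without replicate 3, and -1.09, adjusted p = 0.798, with it). The junction protein Esam (0.38), the transcription factor Erg (0.34), Egfl7 (0.42), Mmrn2 (0.56), Icam2 (0.58), Adgrf5 (0.38) and Adgrl4 (0.45) also rose without replicate 3. With all arrays Esam had -0.32, Erg -0.38, Egfl7 -0.17 and Adgrf5 -0.66, below 0, while Mmrn2 had 0.12, Icam2 0.20 and Adgrl4 0.44, and none passed. Replicate 3 was above all DMSO arrays for 2 of the 9 that rose and below all of them for 7. Pecam1, Cdh5, Emcn and Eng were not called. How far the endothelial content of the cultures enters these values was not tested.

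Lyve1, the hyaluronan receptor of lymphatic and sinusoidal endothelium, lay at 8.16, 8.29 and 8.15 with DMSO and at 9.58, 9.99 and 7.59 with SB, and Gpr182, a receptor of the same vessels, at 8.73, 8.71 and 8.63 and at 10.17, 10.20 and 8.49. In both, replicate 3 was below DMSO, and without it the log2 fold changes were 1.58 (standard error 0.12, limma adjusted p = 0.000659) and 1.49 (standard error 0.08, adjusted p = 0.000125). With all arrays they were 0.85 (adjusted p = 0.942) and 0.92 (adjusted p = 0.806). With TGFβ1, Lyve1 lay at 7.33 to 7.61 and Gpr182 at 6.68 to 6.94. Cyp1a1, a cytochrome P450 induced through the aryl hydrocarbon receptor, lay at 6.73, 6.82 and 6.82 with DMSO, at 8.58 and 8.56 in SB replicates 1 and 2 and at 6.99 in replicate 3, just above DMSO. Its log2 fold change was 1.78 (standard error 0.12, adjusted p = 0.000378) without replicate 3, the highest of all called genes, and with all arrays the adjusted p was 0.485. Ednrb, the endothelin B receptor (0.99), the steroid sulfate transporter Slc10a6 (0.98) and the membrane protein Plet1 (0.95) also rose without replicate 3, and had 0.28, 0.46 and 1.16 with all arrays, where they did not pass. Replicate 3 was below DMSO for Ednrb and Slc10a6 and above it for Plet1.

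The 9 genes that rose with all arrays had SB replicate 3 on the same side as the other SB cultures. That culture entered the fit that picked them, so its side is partly a result of the choice. Gimap4, a GTPase of lymphocytes and vessels, lay at 6.61, 6.55 and 6.61 with DMSO and at 7.54, 7.65 and 7.90 with SB, and Fabp4 at 7.51, 7.50 and 7.43 and at 8.54, 8.80 and 8.30. They had 1.11 and 1.06 with all arrays and 1.01 and 1.19 without replicate 3. Tmem154 (0.70), the endothelial repressor Bcl6b (0.60), the decoy receptor Tnfrsf26 (0.54), the class I histocompatibility gene H2-Q5 (0.54), Adhfe1, an alcohol dehydrogenase of mitochondria (0.43), the metalloreductase Steap2 (0.43) and Ets1 were the others, and the 6 before Ets1 had 0.36 (Steap2) to 0.79 (Tmem154) without replicate 3. H2-Q5 is close in sequence to its neighbouring class I genes, so its probes may read them too. With TGFβ1 the 9 had log2 fold changes of -0.73 (Tnfrsf26) to -0.23 (Ets1), and 7 of them passed the test and the fold. Fabp4 was the only one of 28 adipocyte genes called, and the members Lpl (0.18) and Pparg (-0.17) did not pass without replicate 3.

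**Figure D4:**
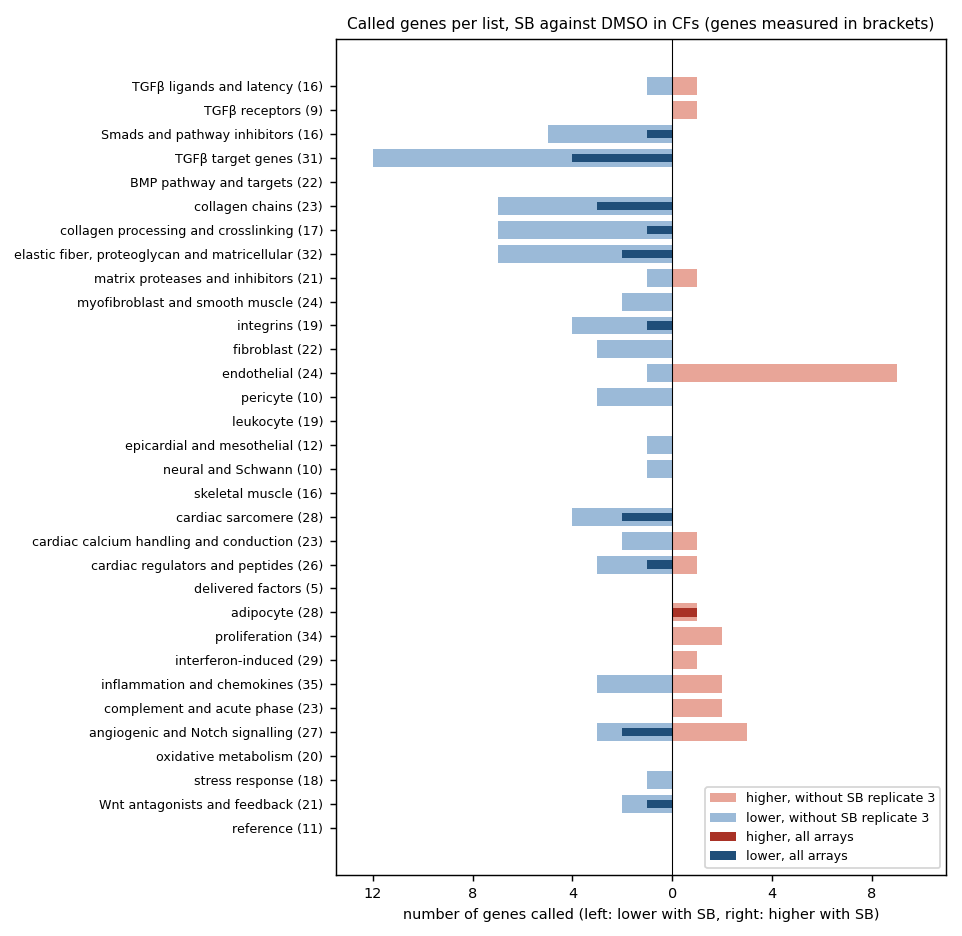
Number of members of each gene list that rose or fell with SB, with all arrays and without SB replicate 3. Matrix and TGFβ lists hold only genes that fell apart from 1 gene each that rose among ligands, receptors and proteases, and the endothelial list holds 9 that rose and 1 that fell without replicate 3.

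Cell cycle and interferon genes lay higher in SB replicates 1 and 2 with few single genes past the test. All 34 proliferation genes had a log2 fold change above 0 without replicate 3, with a median of 0.26, where 40.4% of all genes did. Of these, 2 passed, Ccnb2 (0.34, limma adjusted p = 0.0101) and Aurkb (0.33, adjusted p = 0.0451), which drive entry into and the course of mitosis. With all arrays they had 0.06 and -0.01. The mean over the list was 9.74, 9.63 and 9.73 with DMSO and 9.90, 10.02 and 9.15 with SB, so replicate 3 was the lowest, and the median with all arrays was -0.000588. With TGFβ1, 5 of the 34 fell. Of 29 interferon-induced genes, 28 were above 0 without replicate 3, with a median of 0.35, and Psmb9, a subunit of the immunoproteasome, passed (0.43, adjusted p = 0.0056, and 0.26, adjusted p = 0.896, with all arrays). Here DMSO replicate 1 had a list mean of 10.00 and the other DMSO cultures 9.74, against 10.27, 10.10 and 10.31 with SB. Cxcl10, an interferon-induced chemokine, lay at 8.22, 8.37 and 8.37 with DMSO and at 9.44, 8.85 and 10.23 with SB, higher in all 3 cultures though with a wide spread, and did not pass (1.19, standard error 0.31, adjusted p = 0.307).

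Chemokines moved both ways. Ccl17, which attracts T cells through Ccr4, lay at 9.06, 9.11 and 9.12 with DMSO, at 7.80 and 8.04 in SB replicates 1 and 2 and at 9.04 in replicate 3, and at 12.09 to 12.15 with TGFβ1. It fell without replicate 3 (-1.18, standard error 0.07, limma adjusted p = 0.000212) and did not pass with it (-0.80, adjusted p = 0.554). Cxcl12, the stromal ligand of Cxcr4, lay at 10.87, 10.82 and 10.86 and at 9.92, 10.02 and 8.96, lower in every SB culture (-0.88 without replicate 3, adjusted p = 0.000263; -1.22 with it, adjusted p = 0.135). Ccl2, which attracts monocytes, went up from 10.39, 10.36 and 10.51 to 11.18, 11.18 and 12.38, passing without replicate 3 (0.76, adjusted p = 0.000263) and not with it (1.16, adjusted p = 0.277). Of the 35 genes of inflammation, E-selectin Sele (0.57) was the other that rose without replicate 3 and the cyclooxygenase Ptgs2 (-0.41) the third that fell. In replicate 3 Ptgs2 was at 12.24, above the 10.62 to 10.76 of DMSO, and Sele at 8.12, below the 9.64 to 9.86 of DMSO, and with all arrays they had 0.25 and -0.17.

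Secreted regulators of vessels and of Wnt signalling changed with SB as well. Of 27 angiogenic and Notch genes, 3 rose without replicate 3, the Tie2 ligand Angpt2 (0.83), the Notch feedback gene Nrarp (0.91) and the semaphorin and VEGF coreceptor Nrp2 (0.44), and 3 fell, placental growth factor Pgf (-0.55), Hey2 and Angpt4 (-0.38). With all arrays Angpt2 had 0.18, Nrarp 0.14, Nrp2 0.32 and Angpt4 -0.35 and did not pass. Pgf also fell with all arrays, from 9.84, 10.00 and 9.88 to 9.28, 9.43 and 9.12 (-0.63, limma adjusted p = 0.0242), and lay at 11.64 to 11.73 with TGFβ1. Sfrp2 lay at 10.36, 10.32 and 10.30 with DMSO and at 8.90 to 9.39 with SB, all 3 below DMSO (-1.23, standard error 0.11, adjusted p = 0.00986, and -1.38 without replicate 3). Of 21 Wnt antagonists and feedback genes it was the only one called with all arrays. Gdf6, a BMP-family ligand, fell from 10.22, 10.13 and 10.21 to 9.38, 9.41 and 9.05 (-0.91, standard error 0.10, adjusted p = 0.0133, and -0.79 without replicate 3). Igf1, insulin-like growth factor, lay at 8.41, 8.65 and 8.47 with DMSO, at 7.39, 7.30 and 8.08 with SB and at 11.27 to 11.32 with TGFβ1, and passed without replicate 3 (-1.16, standard error 0.07, adjusted p = 0.000227) and not with it (-0.92, adjusted p = 0.133). Of 22 genes of BMP signalling and its targets, 20 of oxidative metabolism, 19 of leukocytes, 16 of skeletal muscle and 11 reference genes, none was called with or without replicate 3. At an unadjusted p under 0.05 in limma, these lists together held 8 of 88 entries higher and 9 lower without replicate 3. Of all genes, 5.46% and 6.99% were higher and lower. With all arrays the lists held 2 higher and 6 lower. Sdha is on the metabolism and the reference list and is an entry of each.

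The study listed genes that SB moved in both cell types, chosen on these samples, so the counts are no independent evidence of direction. Of 19 such genes raised, 10 passed without replicate 3 and none with all arrays, and of 11 lowered, 10 and 2. Adgrf5 among the endothelial markers, Angpt2 among the angiogenic genes and Ccl17 among the chemokines are also on the study's lists. The gene of the 11 that did not pass without replicate 3 was Mir181a-1, whose probe set lay at 5.18 to 5.24 in all 6 arrays, far below the array medians.

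The SB effect in CFs was compared with that in MEFs carrying HNGMT, where SB was given at 0.5 µM, so cell type and dose cannot be told apart. Sfrp2 fell in CFs and rose in MEFs, Cyp1a1 rose in CFs alone of the 2 when replicate 3 was left out, and C1qtnf3 and Cyp2f2, low in CFs, changed in MEFs. The difference of the 2 SB effects was tested in limma at a fold of at least 1.5. With all arrays it was higher in CFs for 53 genes (0.266%) and lower for 69 (0.346%), and without CF SB replicate 3 higher for 92 (0.461%) and lower for 69 (0.346%). The first pair of counts became 92 and 143 without SB replicate 1 and 91 and 162 without SB replicate 2. The CF and MEF arrays had different medians over all probe sets, 7.36 to 7.43 and 7.83 to 7.91, so levels are not set against each other.

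Several of the largest differences were of genes that SB changed in MEFs and that were not called in CFs. C1qtnf3, a secreted adipokine, lay at 6.28, 6.35 and 6.33 with DMSO and at 6.33, 6.31 and 6.24 with SB in CFs, which overlap below the array median, and had -1.78 with SB in MEFs (adjusted p of the difference = 2.68e-09 without replicate 3). Cyp2f2, a cytochrome P450, lay between 6.28 and 6.58 in all 6 CF arrays and had 1.92 in MEFs. Steap4, Hpse2 and Egfl6 were likewise between 5.53 and 6.42 in the 5 CF arrays without replicate 3 and had 1.40, 1.13 and 1.09 in MEFs. Mpzl2, an adhesion protein, lay at 7.43, 7.27 and 7.27 with DMSO and at 7.55, 7.63 and 8.22 with SB in CFs, did not pass there (0.48, limma adjusted p = 0.548), and had -1.32 in MEFs. Ltbp2, a latent TGFβ binding protein relative of elastic fibers, had 0.22 in CFs without replicate 3 (adjusted p = 0.0551) and -1.38 in MEFs, although TGFβ1 raised it in CFs by 1.86. It is a TGFβ target whose SB effect differed between the cell types by 1.60 (standard error 0.06, adjusted p = 3.99e-14), and in replicate 3 it lay at 8.39, below the 9.24 to 9.39 of DMSO.

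For Cyp1a1 and Sfrp2, SB changed the level in CFs. Cyp1a1 had 1.78 in CFs without replicate 3 and 0.02 in MEFs (difference 1.76, limma adjusted p = 3.48e-09), and with all arrays the difference of 1.23 did not pass (adjusted p = 0.0745). Sfrp2 fell in CFs and rose in MEFs by 0.59, a difference of -1.97 without replicate 3 and -1.82 with all arrays. Car14, Efhd1 and the cardiac actin Actc1 had differences of -1.47, -1.44 and -1.46 with all arrays. They rose with SB in MEFs, by 0.75, 0.69 and 0.84 (adjusted p = 0.000164, 8.06e-05 and 0.00168), and were not called in CFs, at -0.72, -0.75 and -0.63 with all arrays and -0.16, -0.28 and -0.15 without replicate 3, when the differences were -0.90, -0.96 and -0.98. Actc1 lay at 10.40, 10.54 and 9.03 with SB against 10.62, 10.69 and 10.53 with DMSO, so that replicate 3 was far below the other SB cultures. Of 28 sarcomere genes the SB effect was lower in CFs than in MEFs for 5 and higher for none without replicate 3, and of 26 cardiac regulators lower for 4 and higher for none. A lower difference is not a fall in CFs: of these, only Mybpc3 and Nppb also fell in CFs without replicate 3. In MEFs, SB raised 4 of the sarcomere genes and 4 of the regulators and lowered none. Bmp2, Ppargc1a and Tgfbr3, among these regulators, are on the study's list of genes raised by SB, chosen on these samples. The study also named Myocd as raised in MEFs. Bmp2, Ppargc1a and Myocd are also among the regulators with the lower effect in CFs, so neither count is independent evidence of direction. Of 31 TGFβ targets the effect was higher in CFs for 4 and lower for 1 without replicate 3. The 4, Ccn2, Lrrc15, Ltbp2 and Nox4, fell with SB in MEFs and were not called in CFs. The 1, Igfbp3, fell in CFs without replicate 3 and was not called in MEFs. In MEFs, 13 of the 31 fell with SB. Of the 31, Adamtsl2, Itgb5, Lox, Nrep, Nupr1 and Pdlim3 are on the study's list of genes lowered in both cell types on these samples. The MEF count is therefore not independent evidence of direction either. Adamtsl2 (-1.13), Eln (-0.74), Lox (-0.77) and Pmepa1 (-0.73) fell with SB in MEFs too, where 78 genes rose (0.391%) and 86 fell (0.431%).

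**Figure D5:**
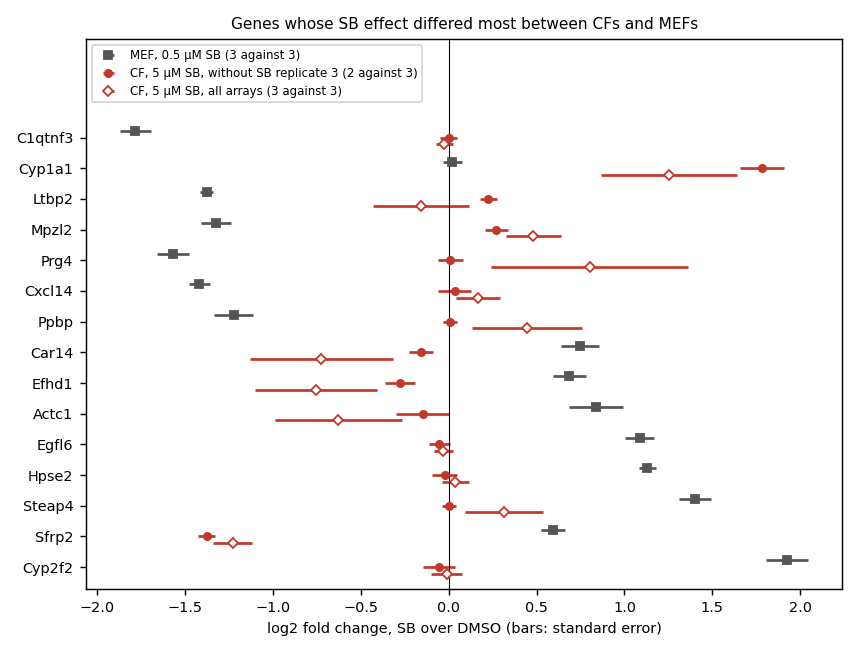
SB effect (log2 SB minus DMSO, with its standard error) of 15 genes in MEFs with HNGMT at 0.5 µM SB and in CFs at 5 µM SB, with all arrays and without CF SB replicate 3. Bars are standard errors of the limma fit: Sfrp2 has 0.59 in MEFs and -1.23 in CFs, and C1qtnf3 and Cyp2f2 lie near 0 in CFs.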

How the data were processed

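Each of the 27 cultures was read on an array of its own (Affymetrix Mouse Gene ST 1.0). The authors' methods name Affymetrix Microarray Suite 5.0 and PartekGS. The deposited values are log2 intensities, with a range of 4.22 to 14.64, and the normalization between arrays is not given in the sources used here. Arrays have no read depth, so their number limits the precision. Of 35556 probe sets, 21789 carried a single gene symbol, 1621 several and 12146 none. For each of 19938 genes the probe set with the highest mean over all arrays was kept (999 genes had several).

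Group means were compared in limma 3.58.1 (R 4.3.3; lmFit, eBayes) over the 9 CF arrays, or 8 without SB replicate 3, which leaves 6 and 5 residual degrees of freedom. The contrast between CFs and MEFs used all 27 arrays, or 26 (18 and 17). Benjamini-Hochberg adjustment ran over all genes. Genes passed at an adjusted p under 0.05 and a fold of 1.25, the threshold of the methods for CFs, or 1.5 for the contrast with MEFs. The scripts were tested on simulated data.

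Named are the 10 highest and 10 lowest called genes whose arrays do not overlap (5 and 5 for the contrast with MEFs), up to 4 members with the smallest p of each of 34 gene lists, the delivered factors and the genes that differed most in SB replicate 3. All other called or listed genes that are named were chosen after their values were seen. The comparison, the culture set aside and the lists were chosen with earlier results of these data known.

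The same replicate number could mark a pair of cultures. Deviations from the group means correlated by 0.115, -0.248 and 0.0565 between DMSO and SB cultures of the same number, so the cultures were treated as unpaired. Alternatives changed the arrays in the fit, weights, variance model, normalization, dim genes, fold, probe sets and the cultures left out. Promoters came from RefSeq, GRCm38.p6. Figures were drawn in Python 3.11.15 with matplotlib 3.10.9.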

Additional observations from a re-analysis of the deposited data

Results flagged for a closer look

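The SB effect differed between CFs and MEFs with HNGMT for the following genes, by the limma contrast of the 2 effects. With all arrays, the effect in CFs minus that in MEFs was 2.37 for Prg4, 1.80 for Mpzl2, 1.76 for C1qtnf3, 1.67 for Ppbp and 1.58 for Cxcl14. It was -1.94 for Cyp2f2, -1.82 for Sfrp2, -1.47 for Car14, -1.46 for Actc1 and -1.44 for Efhd1. Without CF SB replicate 3 it was 1.78 for C1qtnf3, 1.76 for Cyp1a1, 1.60 for Ltbp2, 1.59 for Mpzl2 and 1.57 for Prg4, and -1.98 for Cyp2f2, -1.97 for Sfrp2, -1.40 for Steap4, -1.15 for Hpse2 and -1.14 for Egfl6. Prg4, the lubricin of joint surfaces, lay at 6.20 to 6.37 in the DMSO cultures and SB replicates 1 and 2 of CFs, and in SB replicate 3 it was at 8.67, and Ppbp, a platelet chemokine, at 5.55 to 5.62 and at 6.91. SB was given at different doses in the 2 cell types, which cannot be told apart from cell type here.

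Probe sets with several gene symbols or none were outside the comparison of genes. Of these, 4 passed the thresholds with all arrays (1 higher, 3 lower) and 32 without SB replicate 3 (16 higher, 16 lower). With all arrays, 1 of the 4 carried several symbols and 3 none, and without SB replicate 3 these were 8 and 24.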

How the results depend on the processing

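With all arrays the number of genes that rose (9) or fell (39) depended on many choices, and without SB replicate 3 (171 and 206) on fewer. Some choices left the all-array counts close: an intensity trend with robust variance gave 10 and 43. No fold threshold gave 11 and 42, and the mean of probe sets 7 and 40. With all arrays, the 6 arrays compared alone gave 0 and 0, all 27 arrays in the fit 88 and 218, and array weights, whose iteration did not reach its tolerance, 272 and 315. A fold of 1.5 gave 4 and 11, a fold of 2 gave 2 and 4, genes above the 40th percentile gave 14 that rose and quantile normalization 15. Leaving out single cultures gave 0 to 171 that rose and 2 to 206 that fell. Without SB replicate 3, a fold of 1.5 gave 42 and 47, a fold of 2 gave 5 and 11, no fold threshold gave 359 that fell, and leaving out a further culture 62 to 222 and 103 to 215. For the contrast with MEFs (53 and 69), the 12 arrays alone gave 28 and 28, array weights 103 higher, and no fold threshold 149 and 214, with 49 to 92 and 53 to 162 when single cultures were left out. Without SB replicate 3 (92 and 69), no fold threshold gave 362 and 398, and single cultures left out 74 to 111 and 67 to 75. The causes were not tested.

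With the replicate number as a block, 4 genes rose and 11 fell with all arrays and 142 and 185 without SB replicate 3, and the contrast with MEFs gave 58 and 75, or 85 and 71. Same-numbered cultures are not known to be pairs, and 5 of the 9 CF arrays correlated best with an array of their own number.

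Among the genes that the naming rules above picked, direction with all arrays was reversed without SB replicate 3 for 5. Their changes with single cultures left out ran from -1.19 to 0.38 (Adgrf5), -0.20 to 0.33 (Aurkb), -0.36 to 0.27 (Pdgfrb), -0.55 to 0.57 (Sele) and -0.35 to 0.35 (Upk3b). Other called genes, such as Esam, Erg, Egfl7 and Ptgs2, also changed sign without replicate 3. Array weights reversed Crct1 (-0.51), Dgat2 (-0.36), Necab1 (0.47), Pdgfrb (-0.35), Sele (0.48) and Upk3b (-0.34). Of the other values of named genes under alternatives, 7245 kept direction and side of the threshold, 234 newly passed and 406 no longer passed. The alternative without genes that hold equal values was chosen after seeing the data. Bright genes such as Tnnt2 and Acta2 lie near the top of the arrays, and dim genes such as Cyp2f2 in CFs near the bottom, where a change can go unseen.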

Other observations

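Pericyte and mesothelial markers also moved without SB replicate 3. Of 10 pericyte markers 3 fell: Mcam, an adhesion protein of vessel walls, lay at 12.20, 12.16 and 12.16 with DMSO and at 11.65, 11.65 and 10.37 with SB (-0.52 without replicate 3, limma adjusted p = 0.000555, and -0.95, adjusted p = 0.515, with it), the proteoglycan Cspg4 had -0.43 (-0.22 with all arrays) and the receptor Pdgfrb -0.36 (0.05). Pdgfrb was at 11.50 in replicate 3, above the 10.48 to 10.73 of DMSO. Of 12 epicardial and mesothelial markers, the uroplakin Upk3b fell (-0.35, adjusted p = 0.00404, and 0.11 with all arrays) and was at 11.44 in replicate 3, above the 10.36 to 10.45 of DMSO. Ncam1, an adhesion protein of nerve and muscle, was the only called gene of 10 neural markers, with 10.22 in each DMSO culture and 9.75, 9.83 and 9.31 with SB (-0.43 without replicate 3, and -0.59, adjusted p = 0.14, with it).

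Complement and acute phase genes held 2 of 23 that rose without replicate 3. These 2, Serping1 and Lbp, are among the genes that the study listed as raised by SB on these samples. The count is therefore not independent evidence of direction. Serping1, the C1 inhibitor, lay at 10.55, 10.61 and 10.53 with DMSO and at 11.05, 11.11 and 12.78 with SB, and Lbp, which binds lipopolysaccharide, at 9.98, 9.89 and 9.95 and at 10.37, 10.31 and 9.48. They had 0.52 and 0.40 without replicate 3 and 1.09 and 0.11 with all arrays. Ahr, which encodes the receptor that induces Cyp1a1 and was looked up after the values of Cyp1a1 were seen, lay at 9.81, 9.98 and 9.91 with DMSO, at 10.43 and 10.51 in SB replicates 1 and 2 and at 8.92 in replicate 3 (0.57 without replicate 3, limma adjusted p = 0.00224, and 0.05, adjusted p = 0.998, with it). Cyp1b1, Tiparp and Ahrr, other genes known to respond to that receptor, had 0.07, 0.12 and 0.05 without replicate 3 and did not pass.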
